A study of Mus musculus with 10 samples.

Results

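The respiratory chain of the inner mitochondrial membrane is built from subunits encoded in the nucleus and, for all of its complexes but complex II, from subunits encoded in mitochondrial DNA. This section is about the transcripts of the nuclear-encoded subunits in the intestine of Zip14 KO and WT mice. Complexes I (NADH dehydrogenase) and II (succinate dehydrogenase) pass electrons to ubiquinone, complex III (cytochrome bc1) passes them on to cytochrome c, and complex IV (cytochrome c oxidase) to oxygen. Complex V (ATP synthase) uses the proton gradient that complexes I, III and IV build. Absorptive enterocytes are rich in mitochondria, which supply the energy for nutrient uptake and lipid export, and complex II is at the same time an enzyme of the tricarboxylic acid (TCA) cycle.

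Members were taken as protein-coding genes whose symbols begin with Nduf and a subunit letter and number (complex I), are Sdha to Sdhd (II), or begin with Uqcr (III), Cox4 to Cox8 (IV) or Atp5 (V). This gave 84 of the 35275 counted gene IDs, namely 37 genes for complex I, 4 for II, 8 for III, 18 for IV and 17 for V. The symbol rule groups Ndufa4 and Ndufa4l2 with complex I, although the Ndufa4 protein is now counted with complex IV. It also takes in Cox7a2l, a factor of supercomplex assembly, and Atp5s, a protein related to assembly, and it misses Cyc1, Ndufab1 and the carrier Cycs, which are given further on. A further 10 processed pseudogenes that match the patterns were counted as genes of their own, and none had more than 31 counts in a library.

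RNA-seq was done on frozen segments labelled proximal intestine from 5 Zip14 (Slc39a14) KO and 5 WT mice, 1 library per mouse. The paper describes the KO mice as lacking the metal transporter Zip14 in the whole body, with WT controls of the same strain from heterozygous matings, while the series title names a deletion in enterocytes. From the counts alone the kind of deletion could not be read. The labels give an age of 8 to 10 weeks for both groups. The deposited values were raw counts per gene, with totals of 16729787 to 20819678 in WT and 17118742 to 19414828 in KO libraries. Levels are given as CPM (counts scaled to library size, after TMM normalization), and levels of different genes are compared only per kilobase of exon.

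Slc39a14 had 260.4 ± 62.5 CPM in WT and 102.4 ± 32.9 CPM in KO mice (SD, n = 5 each). It was called lower, at -1.35 on the log2 scale with adjusted p = 0.00184 by edgeR's quasi-likelihood test. Markers of the gut region and of cell types moved with genotype, and all results below stand beside them. All 8 ileum markers were called higher in KO, with a summed level of 164.5 to 569.6 CPM in WT and 4347 to 10360 CPM in KO, and 5 of 8 markers of the proximal small intestine were called lower (5046 to 6821 CPM against 69.2 to 848 CPM). The KO libraries thus carried ileal markers against their label. Of 10 smooth muscle markers 9 were called higher (1629 to 2674 CPM against 3600 to 10600 CPM, no overlap), as were 9 of 9 markers of enteric neurons and glia. Of 10 enterocyte markers 6 were called lower (35030 to 48000 CPM against 16180 to 33980 CPM), among them Fabp1, which is also in the list of the proximal small intestine. Vil1, which every enterocyte carries, had a log2 fold change of -0.49 that was not called (adjusted p = 0.105 by edgeR's quasi-likelihood test). Apoa1, Fabp2 and Anpep had -0.36, -0.24 and -0.11 and were not called either. Genotype, gut region and tissue makeup cannot be told apart in these samples, and in whole tissue fewer cells of a type cannot be told apart from less RNA per cell.

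Of the 84 members, 82 passed the filter on low counts and were tested together with all other genes. With an adjusted p under 0.05 in edgeR's quasi-likelihood test, 19 members were lower and 2 were higher in KO mice. Over all 15610 genes tested, 13.9% were called lower and 16.0% higher, against 23.2% and 2.44% of the members. Of the 61 members not called, 48 had a negative log2 fold change and 13 a positive one. Of all 82, 67 were negative, or 54 with scaling to library size alone. The median log2 fold change was -0.23 over the members and 0.03 over all genes tested, and with scaling to library size alone these medians were -0.10 and 0.15, with 15 members called lower and 2 higher (1589 and 3608 of all genes). In 12 members all KO libraries were below all WT libraries and in 1 member all were above, that is 14.6% and 1.22% of the members, against 10.8% and 10.2% of all genes.

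The count of lower members was sensitive to single mice. It was 12 without WT replicate 1, 12 without WT replicate 2, 12 without WT replicate 3 and 12 without KO replicate 3, and 12 members were called in every one of the 10 fits that left out a mouse. With a smooth muscle score as a covariate no member was called in either direction, and of all genes 10 were called higher and 7 lower, so that genotype and the score could not be separated in this fit. The median log2 fold change of the members in that fit was -0.30.

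**Figure D1:**
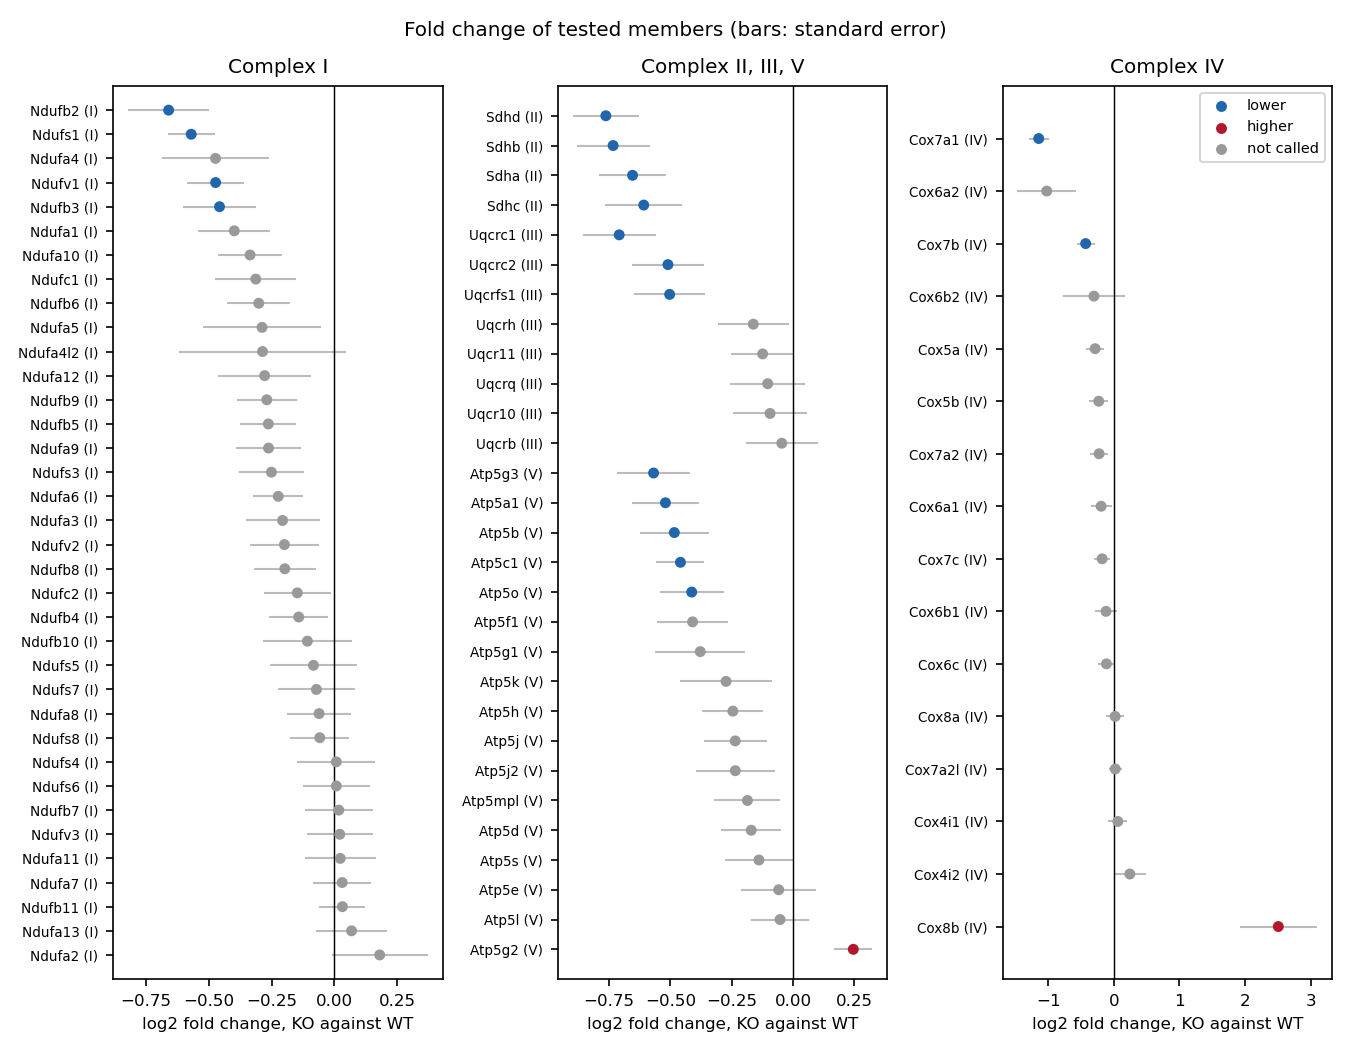
Log2 fold change of KO against WT (x axis) for 81 of the tested members (rows, with the complex in parentheses), with bars for the standard error. Blue points are called lower, red higher and grey not called at an adjusted p under 0.05. All 4 complex II genes lie between -0.76 and -0.61, and the x axis differs between panels so that Cox8b at 2.51 can be shown.

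The complexes were read together first, as the sum of CPM over their members in each mouse. Complex II summed to 1775, 1640, 1794, 1212 and 1332 CPM in WT replicates 1 to 5 and to 997, 870, 927, 919 and 1115 CPM in KO replicates 1 to 5. Every KO mouse was below every WT mouse, and the KO mean of 966 ± 94.9 CPM was 37.7% below the WT mean of 1551 ± 264 CPM (SD, n = 5 each). For the other complexes the sums overlapped between the groups. Complex V had 8034 ± 1037 CPM in WT and 6090 ± 583 CPM in KO (24.2% lower), and complex III had 2154 ± 325 and 1686 ± 183 CPM (21.7% lower). Complex I had 3958 ± 529 and 3405 ± 484 CPM (14.0% lower), and complex IV had 3557 ± 488 and 3189 ± 428 CPM (10.3% lower). With scaling to library size alone complex II was 32.1% lower, still with no overlap, complex V 17.4%, complex III 14.5%, complex I 6.03% and complex IV 1.98% lower. The differences for complexes I and IV were about 1 SD or less with either scaling, and no test was made on the sums or between complexes. The sums are not scaled by length, so that members with many counts weigh most. In complex V these were Atp5b and Atp5a1, with 2267 and 1684 CPM in WT.

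Together the members took up between 1.40% and 2.19% of the scaled counts of a library. WT replicates 4 and 5 stood apart from the other WT mice, and both were below WT replicates 1 to 3 in 64 of the 82 tested members. The median member had 86.0% and 86.8% of the WT mean in these mice, 113% in WT replicates 1 and 3 and 101% in WT replicate 2. The KO mice ranged from 74.2% in replicate 1 to 98.2% in replicate 5.

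**Figure D2:**
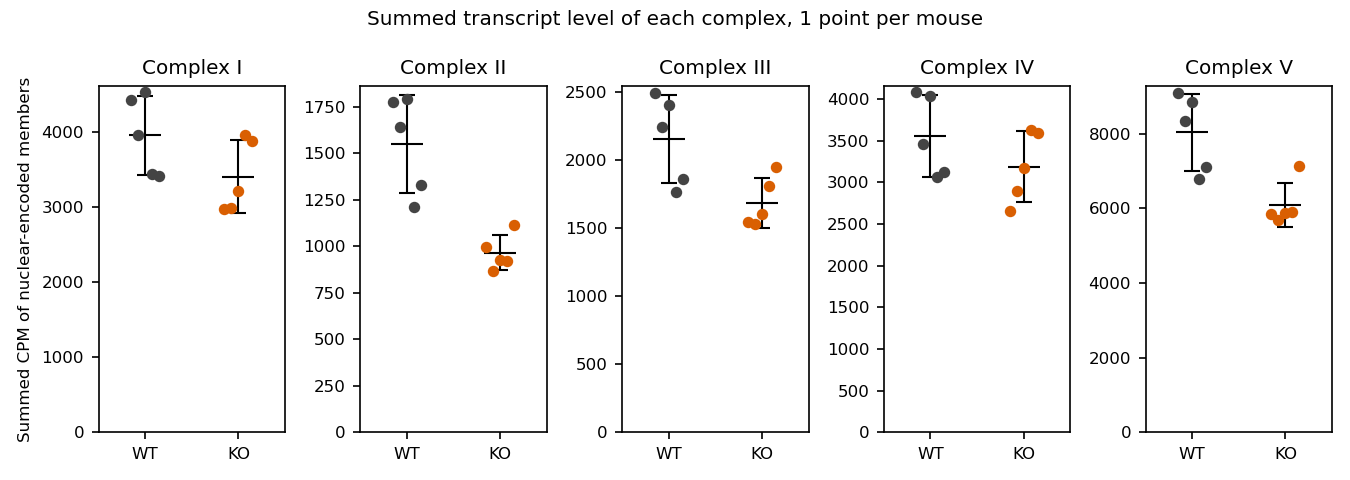
Summed CPM of the nuclear-encoded members of each complex (y axis, from 0) in WT and KO mice, with 1 point per mouse, a line for the mean and bars for the SD (n = 5). The groups are apart for complex II, at 1212 to 1794 CPM in WT and 870 to 1115 CPM in KO, and overlap for the others.

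Complex II has 4 subunits, all of them nuclear, and all 4 were called lower with no overlap between groups. Sdha, the flavoprotein that oxidizes succinate, lies on chromosome 13 (74322254 to 74350280, minus strand, GRCm38). It had 754.5, 666, 809, 524 and 619 CPM in WT and 461, 388, 434, 376 and 484 CPM in KO mice, a log2 fold change of -0.65 ± 0.14 (standard error, written SE from here on), with adjusted p = 0.00613 by edgeR's quasi-likelihood test. The highest KO mouse was thus below the lowest WT mouse. Sdhb, the iron-sulfur subunit (chromosome 4, 140961203 to 140979193, plus strand), had 370, 346, 359, 245 and 249 CPM in WT and 194, 189, 167, 168 and 225 CPM in KO mice. Its log2 fold change was -0.73 ± 0.15 SE, with adjusted p = 0.00517 by the same test. Sdhc (chromosome 1, 171127165 to 171150603) and Sdhd (chromosome 9, 50596357 to 50603812), both on the minus strand, anchor the enzyme in the membrane and hold its heme. Sdhc had 204.8 to 293 CPM in WT and 130 to 204 CPM in KO mice, with values of groups that nearly touched, and a log2 fold change of -0.61 (adjusted p = 0.0149 by the same test). Sdhd had 238.5 to 358 CPM in WT and 163 to 202 CPM in KO mice, and had the lowest log2 fold change of the 4, -0.76 ± 0.14 SE, with adjusted p = 0.00275 by the same test. The log2 fold changes of the 4 genes differed among themselves by about 1 standard error. All 4 stayed called when any 1 mouse was left out, 3 with the replicate number as a block (Sdhc was lost) and none with the smooth muscle score as a covariate.

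The promoters of Sdha, Sdhb and Sdhd are shown because the complex II genes moved together. Sdhc has no entry in the promoter table used. The windows hold 250 bases before and 50 after the transcription start, from RefSeq on GRCm38.p6, and 68 of the 84 members have one. Letters of 4 motifs bound by known regulators of respiratory genes were searched on both strands, and matches are in capitals. They are GCATGCGC (core of the site of NRF1), CCGGAAG (core of ETS factors such as GABP), TCAAGGTCA (site of the ERR receptors) and AAGATGGC (core of YY1). The windows are chr13:74350191-74350490 on the minus strand for Sdha, chr4:140961021-140961320 on the plus strand for Sdhb and chr9:50603800-50604099 on the minus strand for Sdhd.
Sdha: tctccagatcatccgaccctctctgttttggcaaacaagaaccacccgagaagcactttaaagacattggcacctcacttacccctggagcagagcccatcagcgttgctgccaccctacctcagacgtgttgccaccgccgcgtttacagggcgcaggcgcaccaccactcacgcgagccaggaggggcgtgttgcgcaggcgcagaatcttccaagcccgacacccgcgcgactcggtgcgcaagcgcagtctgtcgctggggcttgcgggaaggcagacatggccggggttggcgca
Sdhb: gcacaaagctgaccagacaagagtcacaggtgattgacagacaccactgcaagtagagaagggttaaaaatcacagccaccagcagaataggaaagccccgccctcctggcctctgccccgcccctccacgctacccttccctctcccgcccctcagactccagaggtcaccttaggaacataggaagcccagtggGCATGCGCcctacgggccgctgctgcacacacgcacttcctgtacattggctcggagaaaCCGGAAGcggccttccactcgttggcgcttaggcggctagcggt
Sdhd: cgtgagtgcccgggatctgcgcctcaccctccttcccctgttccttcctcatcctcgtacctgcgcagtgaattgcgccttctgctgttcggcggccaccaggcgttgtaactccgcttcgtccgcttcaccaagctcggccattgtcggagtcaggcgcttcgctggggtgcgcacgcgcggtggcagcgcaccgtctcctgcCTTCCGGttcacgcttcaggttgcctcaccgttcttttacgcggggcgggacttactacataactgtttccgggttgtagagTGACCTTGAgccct
The Sdha window held none of the 4 motifs. Sdhb held the NRF1 letters from base -54 and the ETS letters from base 6, counted from the start site as base 0. Sdhd held the ETS letters from base -46 and the ERR letters from base 36, both on the other strand. A match of letters is a description and does not show that a factor was bound.

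Complex III, whose catalytic cytochrome b is mitochondrially encoded, had 3 of 8 members called lower (37.5%, against 13.9% of all genes) and none higher. Only Uqcrc1 was called in all 10 fits that left out a mouse, and without WT replicate 1, 2 or 3 or KO replicate 3 it was the 1 lower member of the complex. The 3 lower members are the large core proteins Uqcrc1 and Uqcrc2 and the Rieske iron-sulfur protein Uqcrfs1. Uqcrc1 had 616, 558, 555, 395 and 436 CPM in WT and 326, 333, 258, 284 and 365 CPM in KO mice. The groups did not overlap, and the log2 fold change was -0.71 ± 0.15 SE, with adjusted p = 0.00605 by edgeR's quasi-likelihood test. Uqcrc2 and Uqcrfs1 had log2 fold changes of -0.51 and -0.50 (adjusted p = 0.0246 and 0.0231 by the same test), with overlap between their groups, and were called in 5 and 6 of the 10 fits that left out a mouse. Of the exon bases of Uqcrc2, 19.7% are shared with Pdzd9 on the other strand, and whether reads were counted by strand is not stated. The other 5 members (Uqcrb, Uqcrh, Uqcrq, Uqcr10 and Uqcr11) are small subunits, had log2 fold changes of -0.16 to -0.05 and were not called. Uqcr10 and Uqcr11 had the highest levels per length in the complex, with 284 and 257 CPM per kb in WT mice. The window of Uqcrc1, chr9:108936398-108936697 on the plus strand, is shown as that of the lowest member of the complex.
Uqcrc1: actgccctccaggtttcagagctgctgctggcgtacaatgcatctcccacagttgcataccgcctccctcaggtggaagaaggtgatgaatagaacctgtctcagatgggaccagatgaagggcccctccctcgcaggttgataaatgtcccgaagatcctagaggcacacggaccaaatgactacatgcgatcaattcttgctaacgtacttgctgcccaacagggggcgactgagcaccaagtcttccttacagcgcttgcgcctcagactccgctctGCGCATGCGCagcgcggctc
Its capitals are the NRF1 letters on both strands, which overlap in a run that reads the same on either strand.

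**Figure D3:**
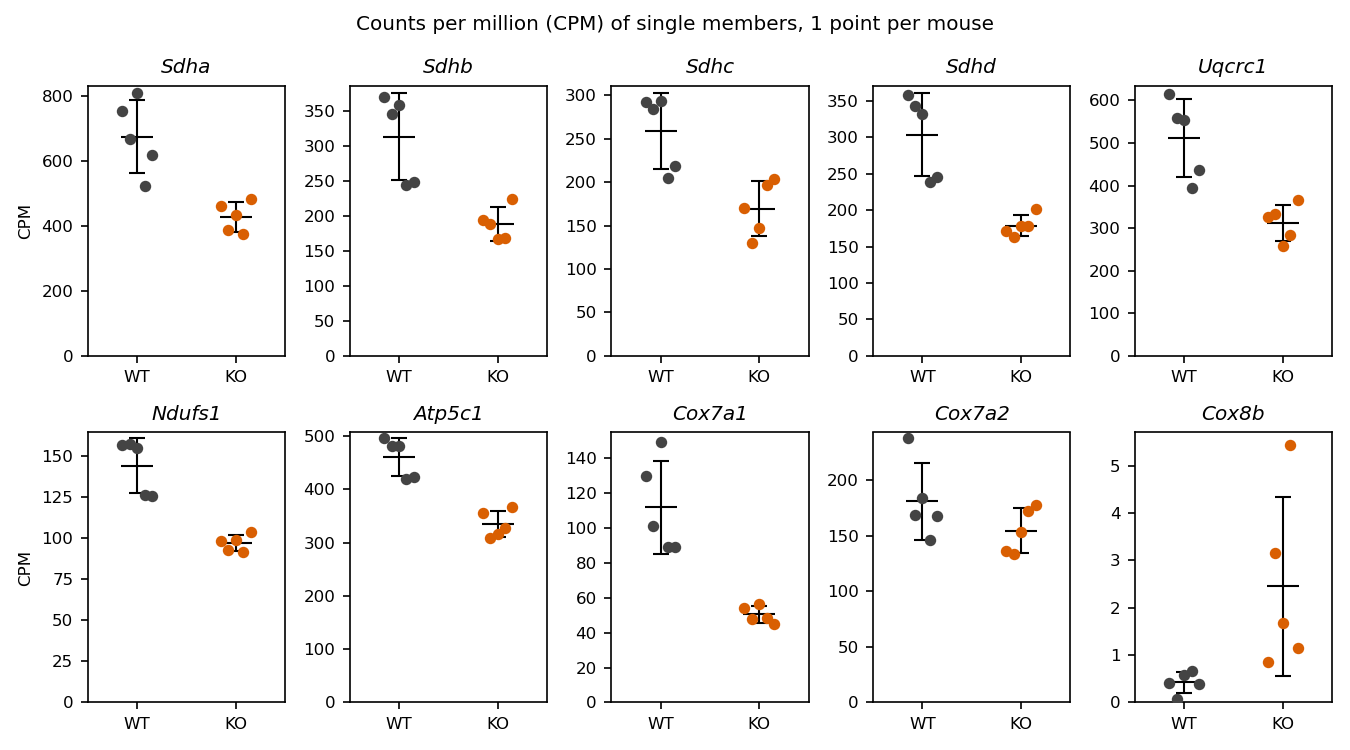
CPM (y axis, from 0) of single members in WT and KO mice, with 1 point per mouse, a line for the mean and bars for the SD (n = 5). The groups do not overlap for the members shown except Cox7a2, and Cox8b is the one that is higher in KO mice.

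In complex V, 5 of 17 members were called lower (29.4%) and 1 higher (5.88%), against 13.9% and 16.0% of all genes. The lower count was 3 without WT replicate 1, 2 or 3 or KO replicate 3 and 7 without KO replicate 5. Alpha and beta subunits form the F1 head, inside which the central stalk with the gamma subunit turns, and the transcripts of all of these subunits were lower in every KO mouse than in any WT mouse. Atp5b (beta) had 2569, 2276, 2444, 1994 and 2054 CPM in WT and 1735, 1586, 1530, 1323 and 1930 CPM in KO mice, a log2 fold change of -0.48 ± 0.14 SE, with adjusted p = 0.0255 by edgeR's quasi-likelihood test, and was called in 6 of the 10 fits that left out a mouse. Atp5a1 (alpha) went from 1684 ± 236 to 1174 ± 120 CPM and Atp5c1 (gamma) from 460.4 ± 36.2 to 335 ± 25.0 CPM (SD, n = 5 each). Their log2 fold changes were -0.52 and -0.46 (adjusted p = 0.0167 and 0.00665 by the same test). The alpha and beta genes had the highest levels per length of complex V, 537 and 535 CPM per kb in WT mice, which is less than their spread apart. The remaining F1 subunits, Atp5d (delta) and Atp5e (epsilon), had -0.17 and -0.06 and were not called.

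The c ring, the rotor in the membrane, is encoded by 3 genes that give the same mature protein. Atp5g3 had 733, 778, 795, 552 and 598 CPM in WT and 386, 428, 435, 554 and 527 CPM in KO mice, a log2 fold change of -0.57 ± 0.15 SE, with adjusted p = 0.0157 by edgeR's quasi-likelihood test. One KO mouse lay within the range of the WT mice. Atp5g2 had 101.4, 84.2, 96.0, 95.1 and 91.8 CPM in WT and 101.3, 110.1, 115, 111.5 and 117 CPM in KO mice, and was called higher with a log2 fold change of 0.25 ± 0.08 SE, with adjusted p = 0.0349 by the same test. Here 4 of 5 KO mice were above all WT mice. Atp5g1 was not called, at -0.38. The call of Atp5g2 was lost in 10 of 18 alternative fits. The window of Atp5g3, chr2:73911277-73911576 on the minus strand, is shown for its ERR letters, in capitals on the other strand from base -52.
Atp5g3: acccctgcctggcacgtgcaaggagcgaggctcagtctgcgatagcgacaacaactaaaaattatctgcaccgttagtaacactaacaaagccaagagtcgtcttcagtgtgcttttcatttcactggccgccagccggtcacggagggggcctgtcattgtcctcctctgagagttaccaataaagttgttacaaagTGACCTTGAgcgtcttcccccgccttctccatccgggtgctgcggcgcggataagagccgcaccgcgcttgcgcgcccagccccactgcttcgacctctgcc
Of the peripheral stalk, Atp5o (OSCP) was called lower at -0.41 (adjusted p = 0.0355 by edgeR's quasi-likelihood test), a call kept in 4 of the 10 fits that left out a mouse. Of the Atp5o exon bases, 47.9% are shared with other gene IDs, among them a second Atp5o ID on the same strand. Atp5f1 just missed the call at -0.41 (adjusted p = 0.0511). Atp5h and Atp5j of the stalk and the small membrane subunits Atp5j2, Atp5k, Atp5l and Atp5mpl lay between -0.27 and -0.05 and were not called.

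Complex I had 5 of 37 members called lower (13.5%), close to the share over all genes, and none called higher. The lower count was 3 to 8 when a mouse was left out, with 3 without WT replicate 1, 2 or 3 or KO replicate 2 or 3 and 8 without WT replicate 4. Of its 7 nuclear-encoded core subunits, which include those that carry the flavin and the iron-sulfur clusters, 3 were lower. Ndufs1, the large iron-sulfur subunit, had 157, 158, 155, 126.5 and 126 CPM in WT and 98.4, 93.0, 98.9, 91.8 and 104 CPM in KO mice. The groups were well apart, and the log2 fold change was -0.57 ± 0.09 SE, with adjusted p = 0.00192 by edgeR's quasi-likelihood test. Ndufv1, which binds NADH and the flavin, had 171 to 231.5 CPM in WT and 138 to 168 CPM in KO mice, a log2 fold change of -0.47 (adjusted p = 0.0116 by the same test). The core subunits that were not called had log2 fold changes of -0.25 to -0.06.

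Of the other 30 members grouped with complex I, 2 were lower, Ndufb2 and Ndufb3. Ndufb2 had -0.66 (adjusted p = 0.0122 by edgeR's quasi-likelihood test) at a level of 5.62 ± 0.81 CPM in WT and 3.55 ± 0.51 CPM in KO mice (SD, n = 5 each). Per length this was 0.999 CPM per kb in WT, the lowest of the complex, followed by Ndufa4l2 at 1.32 and Ndufb5 at 15.2 CPM per kb. The union of the Ndufb2 exons holds 5628 bases for a coding length of 315, and 7.94% of them are shared with other genes. How far the annotation and the counting of reads set this low level was not tested. Ndufb3 had -0.46 (adjusted p = 0.0379 by the same test), a call kept in 4 of the 10 fits that left out a mouse. Ndufa4 had 218 ± 16.9 CPM in WT and 157 ± 54.3 CPM in KO mice, a log2 fold change of -0.47 that was not called (adjusted p = 0.1098 by the same test), nor in any of the 18 alternative fits. KO replicates 4 and 5 were at WT level with 212 and 209 CPM, and KO replicates 2 and 3 had 106 and 98.8 CPM. The subunits with the highest level per length, Ndufa1 and Ndufb9 (247 and 192 CPM per kb in WT), had -0.40 and -0.27 and were not called. Ndufa2 had the highest value, 0.18, and was not called.

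Complex IV had 2 of 16 tested members lower (12.5%), near the share over all genes, and 1 higher. All of its nuclear-encoded subunits surround a catalytic core that is mitochondrially encoded, and several exist as pairs of isoforms with different tissues. Cox7a1, the isoform best known from heart and skeletal muscle, lies on chromosome 7 (30184144 to 30186078, plus strand) and had the largest fall of all members. It had 130, 101.2, 149, 89.1 and 89.2 CPM in WT and 54.2, 48.0, 56.2, 48.6 and 44.8 CPM in KO mice, with no overlap. The log2 fold change was -1.15 ± 0.15 SE, with adjusted p = 0.000699 by edgeR's quasi-likelihood test. Its partner Cox7a2, the isoform found in most tissues, had 181 ± 34.5 and 154.5 ± 20.2 CPM and was not called (-0.23). Per length, the ratio of Cox7a1 to Cox7a2 was 0.939 to 1.43 in WT and 0.444 to 0.704 in KO libraries. Cox7a1 was thus lower in KO mice while 9 of 10 smooth muscle markers were called higher. Of the 4 tested striated muscle markers 1 was called, Ckm, which was higher (2.56 ± 0.61 to 8.53 ± 3.73 CPM). Myl1 and Acta1 had log2 fold changes of 1.22 and 1.18 and Mylpf had -0.19, all not called. The summed level of the whole list overlapped (8.97 to 18.3 CPM in WT and 11.0 to 57.1 CPM in KO).

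Cox8b, the heart and muscle isoform that is also strong in brown fat, lies on chromosome 7 (140898945 to 140900446, minus strand) and was the member with the largest rise, at a low level. It had 0.415, 0.0638, 0.583, 0.66 and 0.392 CPM in WT and 0.845, 3.15, 1.67, 5.43 and 1.15 CPM in KO mice, or 38 and 242 counts in all. Each KO mouse was above each WT mouse, and the log2 fold change was 2.51 ± 0.59 SE, with adjusted p = 0.0103 by edgeR's quasi-likelihood test. The fat gene Plin1 was called higher too (5.28 ± 5.82 to 32.5 ± 33.6 CPM). The fat genes Adipoq and Cidea had log2 fold changes of 2.49 and 1.10. Neither was called (adjusted p = 0.0503 and 0.1205 by edgeR's quasi-likelihood test). Plin1, Adipoq and Cidea were highest in KO replicate 4, as was Cox8b. The brown fat genes Ucp1 and Elovl3 were at or near 0 in both groups. The summed level of the 6 brown fat markers, Cox8b among them, was 2.36 to 43.0 CPM in WT and 15.1 to 213 CPM in KO, and its part in the result was not tested. Cox8a, the partner found in most tissues, had 401 ± 49.8 and 406 ± 66.8 CPM (0.02, not called), so that the ratio of Cox8b to Cox8a per length stayed at 0.0206 or less in every library. The windows of Cox7a1, chr7:30183921-30184220 on the plus strand, and Cox8b, chr7:140900397-140900696 on the minus strand, are shown for the members that moved most in either direction.
Cox7a1: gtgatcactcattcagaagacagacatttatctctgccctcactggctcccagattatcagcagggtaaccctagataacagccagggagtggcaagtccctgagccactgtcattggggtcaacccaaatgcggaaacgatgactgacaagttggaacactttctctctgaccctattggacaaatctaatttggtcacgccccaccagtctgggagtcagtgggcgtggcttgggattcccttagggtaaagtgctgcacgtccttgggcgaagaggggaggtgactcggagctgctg
Cox8b: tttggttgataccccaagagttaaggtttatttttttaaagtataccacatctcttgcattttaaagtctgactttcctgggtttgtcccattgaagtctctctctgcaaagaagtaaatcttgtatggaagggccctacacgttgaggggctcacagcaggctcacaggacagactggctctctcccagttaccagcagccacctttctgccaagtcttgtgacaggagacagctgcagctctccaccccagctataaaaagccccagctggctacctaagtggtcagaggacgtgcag
Neither window held the letters of any of the 4 motifs.

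Among the other isoforms with a narrow tissue range, Cox4i2, Cox6a2, Cox6b2 and Ndufa4l2 had group means of 8.04 CPM or less and were not called. Cox6a2, like Cox7a1 a heart and muscle isoform, had 0.448 to 0.83 CPM in WT and 0.0477 to 0.563 CPM in KO mice, with a log2 fold change of -1.03 ± 0.45 SE, with adjusted p = 0.101 by edgeR's quasi-likelihood test. The testis isoform Cox7b2 had no count in any library, where a count of 0 allows up to 3 counts per library. Cox8c, also known from testis, had 3 counts in KO replicate 1, 2 counts in KO replicate 5 and none elsewhere (exact permutation test, two-sided, p = 0.444, where 5 mice against 5 can reach 0.00794). Cox7b was called lower at -0.43 (adjusted p = 0.0373 by edgeR's quasi-likelihood test), a call lost in 10 of 18 alternative fits and kept in 3 of the 10 that left out a mouse, those without WT replicate 4, WT replicate 5 or KO replicate 5. The most abundant members per length, Cox6a1 and Cox8a with 802 and 648 CPM per kb in WT, and Cox6b1 and Cox4i1 lay between -0.20 and 0.06 and were not called.

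The lower members were set against subunit role, a grouping made after the values were seen and given without a test. Of the 51 tested supernumerary subunits of complexes I, III and IV, 4 were lower (7.84%) and 1 higher (1.96%), with a median log2 fold change of -0.16. Of the 7 core subunits of complex I, 3 were lower, as were all 3 of Uqcrc1, Uqcrc2 and Uqcrfs1, all 4 of complex II and 3 of 5 of the F1 head and stalk. Among these, the calls of Uqcrc2, Uqcrfs1 and Atp5b were lost when single mice were left out, as given above. The lower members also had longer coding sequences, with a median of 846 bases against 384 in the 61 members not called. Of the 11 members with more than 900 coding bases 8 were lower, and of the 23 with up to 300 bases 2 were lower. Over all genes the same trend was smaller, with 15.4% called lower above 900 bases and 8.24% up to 300 bases. Spearman's rho between coding length and log2 fold change was -0.26 over the 82 members, -0.14 over 14411 genes with a coding length, -0.094 over the 10682 of these within the range of the members' coding lengths and -0.36 over 76 genes of the mitochondrial ribosome, all from the same 10 libraries and across genes that are not independent.

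**Figure D4:**
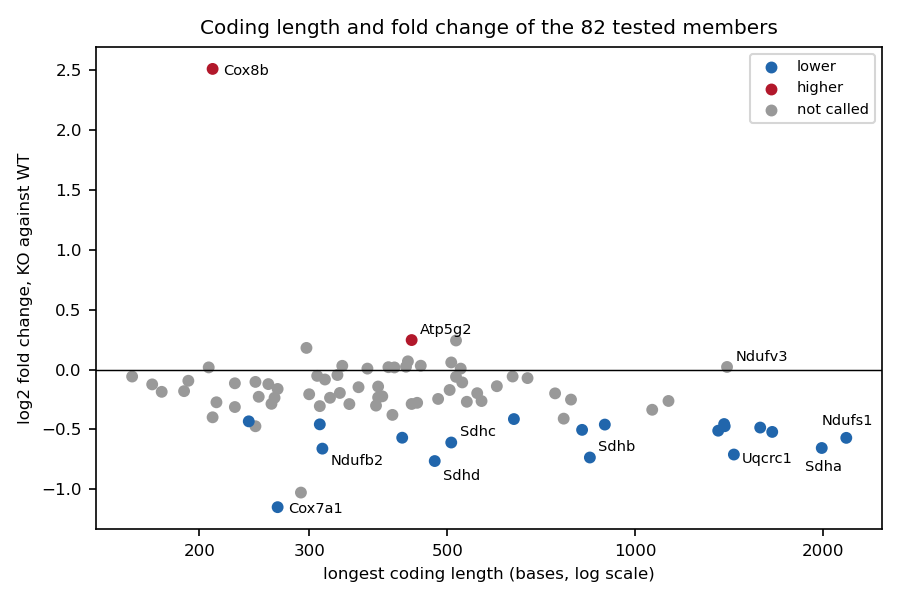
Longest coding length (x axis, bases, log scale) and log2 fold change of KO against WT (y axis) for the 82 tested members, coloured by call. Of the 11 members above 900 bases 8 are called lower (blue), among them Ndufs1, Sdha and Uqcrc1, while Ndufv3 is at 0.02.

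Genes around the respiratory chain were followed in the same test, in which 13.9% of all genes were called lower and 16.0% higher. Of the 13 mitochondrially encoded subunits 12 were tested and 6 were called lower, with a median log2 fold change of -0.41 and none above 0. Their summed level was 33090 to 47890 CPM in WT and 26960 to 35500 CPM in KO libraries, overlapping. The lowest was mt-Nd4l at -1.01, at 7.40 ± 0.64 CPM in WT and 3.67 ± 1.54 CPM in KO mice, and mt-Co1 had -0.51 and was not called (adjusted p = 0.0580 by edgeR's quasi-likelihood test). Apart from mt-Nd2 (2423 CPM), the called genes had WT means of only 7.40 to 111 CPM. The tested genes that were not called had 1401 to 17560 CPM, not scaled by length. How reads were divided among these neighbouring genes is not known, and its part in the calls was not tested. Of 9 genes for subunits, electron carriers and ubiquinone synthesis that the symbol rule misses, 5 were lower, among them Coq8a (-0.50) and Coq9 (-0.34) of ubiquinone synthesis. Etfdh and Etfa, which bring electrons from fatty acid oxidation to ubiquinone, had -0.68 and -0.55, and Cyc1, the cytochrome c1 of complex III, had -0.52 (adjusted p = 0.0299 by the same test), a call lost in 9 of 18 alternative fits. Cycs (cytochrome c) had -0.51, Ndufab1 -0.35, Coq7 -0.06 and Etfb 0.07, and none of these was called.

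The TCA cycle and pyruvate dehydrogenase, which feed complexes I and II, had 13 of 16 genes called lower and none higher, with a median of -0.59. Mdh2 (malate dehydrogenase) went from 1158 ± 249 CPM in WT to 376 ± 84.6 CPM in KO mice (SD, n = 5 each), for a log2 fold change of -1.62 (adjusted p = 0.000413 by edgeR's quasi-likelihood test). Dlat and Ogdh, subunits of the pyruvate and oxoglutarate dehydrogenase complexes, had -1.08 and -1.02. Of the assembly factors for complex I, 3 of 17 were lower (Ndufaf4, Ecsit and Dmac2, -0.53 to -0.43), or 17.6%, near the share over all genes. Of 35 tested for complexes II to V, 11 were lower (31.4%) and 1 higher. The calls of Ndufaf4 and Ecsit were lost in 11 and 10 of 18 alternative fits. The lowest of the assembly factors were Coa7 and Cox15 for complex IV (-0.90 and -0.78) and Sdhaf3 for complex II (-0.82). Of 76 tested proteins of the mitochondrial ribosome 6 were lower (7.89%) and 2 higher (2.63%), both below the shares over all genes. The median of the 76 was 0.02, the nearest of these lists to the median of all genes. The lowest were Mrps36 at -0.58, whose protein is now placed in the oxoglutarate dehydrogenase complex rather than the ribosome, and Mrps15 at -0.53, and Mrps6 was the highest at 0.67, a call lost in 9 of 18 alternative fits.

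Carriers that hand ADP, ATP and phosphate to and from complex V moved in both directions. Slc25a5, an adenine nucleotide carrier, was at 1646 ± 124 CPM in WT and at 1138 ± 235 CPM in KO mice (-0.53), and the phosphate carrier Slc25a3 had -0.51. These calls were lost in 6 and 10 of 18 alternative fits. Slc25a4, the isoform of heart and muscle, was higher, from 41.4 ± 8.24 to 139 ± 64.3 CPM (1.75, adjusted p = 0.00151 by edgeR's quasi-likelihood test). The smooth muscle markers were higher in the same libraries, and their part in this was not tested.

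**Figure D5:**
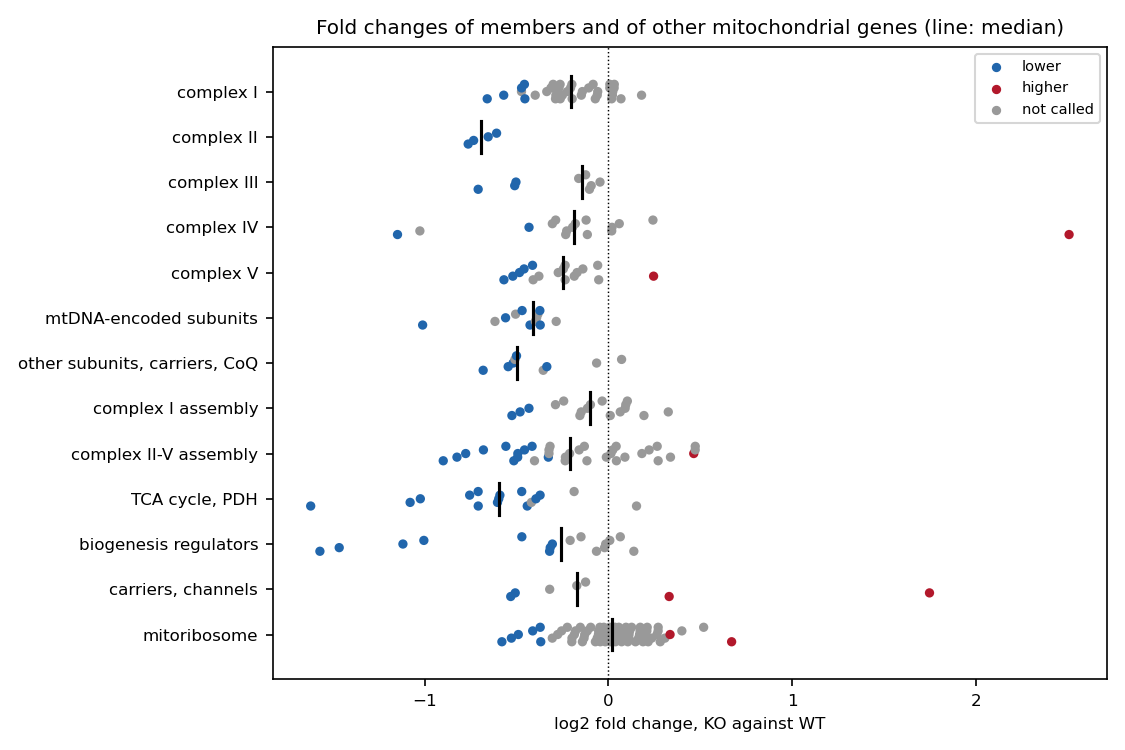
Log2 fold change of KO against WT (x axis) of each tested gene, for the members by complex and for lists of other mitochondrial genes (rows), with a line at the median. The median is -0.69 for complex II and -0.59 for the TCA cycle list, and 0.02 for the mitochondrial ribosome (mitoribosome).

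Of 16 regulators of mitochondrial biogenesis 8 were called lower and none higher. The coactivators Ppargc1a and Ppargc1b (PGC-1 alpha and beta) drive respiratory genes through NRF1, GABP and the ERR receptors. Ppargc1a had 63.8 ± 10.3 CPM in WT and 23.1 ± 8.24 CPM in KO mice with no overlap, a log2 fold change of -1.47 ± 0.23 SE, with adjusted p = 0.00160 by edgeR's quasi-likelihood test, and Ppargc1b had -1.005 (adjusted p = 0.0142). The ERR receptor genes Esrrg (7.95 ± 1.93 CPM in WT and 2.68 ± 1.48 CPM in KO) and Esrra (346 ± 9.84 and 277 ± 24.8 CPM) had log2 fold changes of -1.57 and -0.32, both called, the second lost in 6 of 18 alternative fits. Ppara, the receptor that drives fatty acid oxidation, had -1.12, and Gabpa, the DNA-binding subunit of GABP, had -0.47 (adjusted p = 0.00757 by the same test). Nrf1 (0.14) and Tfam (-0.15), whose protein packs mitochondrial DNA and helps to transcribe it, were not called.

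Letters of the motifs of these factors were counted in the 68 member promoters and in those of 17492 coding genes. NRF1 letters were in 14.7% of the members and 3.94% of the coding genes, ETS letters in 23.5% and 12.9%, YY1 letters in 14.7% and 3.57%, and ERR letters in 2.94% and 0.377%. Of the 14 lower members with a promoter, 2 held NRF1 letters (Sdhb and Uqcrc1), 2 held ETS letters (Sdhb and Sdhd), 2 held ERR letters (Sdhd and Atp5g3) and none held YY1 letters. The promoter of Atp5g2, which was called higher, held NRF1 letters. With 14 lower members and so few matches, nothing is read from these counts.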

How the data were processed

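Libraries (SMARTER mRNA-Seq kit per the labels) of total RNA from 10 mice were sequenced by the authors, who deposited raw read counts per Ensembl gene ID, without normalization. The submitters' processing notes name FastQC 0.11.9, Trimmomatic, HISAT2 2.0.4, SAMtools 1.3.1, DESeq2 1.14.1 and GRCm38. The counter used for the reads, its annotation and whether it used strand were not given in the sources used here, so that reads of overlapping genes may be counted for either gene. GENCODE M21 (GRCm38) gave a symbol for 34490 of 35275 gene IDs. It lists 85 coding genes that match the rule, and 1, a second Atp5o ID, was not analysed here. The values of 1 member of complex I are not reported here, although the counts over members include it.

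Counts were analysed in R 4.3.3 with edgeR 4.0.16 and limma 3.58.1 (DESeq2 1.42.0 as an alternative). Genes were kept by filterByExpr (minimum count 10, minimum total 15), scaled by TMM and compared between 5 KO and 5 WT mice with edgeR's quasi-likelihood test, adjusted by Benjamini-Hochberg over 15610 genes at 0.05. The tests were tried on simulated data first. Members below the filter had an exact permutation test of log2 CPM (prior count 2). Levels per length use the union of exons, and coding length is that of the longest transcript. Isoform ratios add 0.5 counts. The median totals of 18206101 (WT) and 18146070 (KO) counts make a count of 0 compatible with up to 3 counts at 95% confidence, for counting error only. With 1 library per mouse, p-values measure the spread between mice.

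The members, the other gene lists and the tests were chosen with earlier results of these data known. The genes named by rule were the 2 members of each complex with the highest level per length, the 2 called members at either end of the fold changes, called members past 1 in log2, isoform pairs and members below the filter, at most 3 called genes of each list, and Ppargc1a, Ppargc1b, Esrra, Nrf1, Tfam, Cycs, Cyc1, Ndufab1 and Slc39a14. Several of these, mostly those not called, are given with less than full statistics. Other genes were named after their values were seen. Immune markers (2 of 10 lower), exocrine pancreas markers (none of 2 tested called), crypt markers (1 of 8 higher) and striated muscle markers (1 of 4 tested higher) were also counted. Alternatives were RLE scaling, library size alone, DESeq2, all genes unfiltered, a filter on the mean count (10 or more), a robust dispersion, a block for the replicate number, a covariate for smooth muscle, each mouse left out, subunits only, and for ratios a prior count of 2.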

Additional observations from a re-analysis of the deposited data

Results flagged for a closer look

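Values far from the other 4 mice of their group, by Dixon's test at 95%, turned up in 6 of 142 groups of 5 examined, and chance flags about 1 in 20. In 4 of them the mouse is KO replicate 5. This mouse had a summed level of complex V of 7121 CPM against 5685 to 5915 CPM in the other KO mice, Cyc1 at 349 CPM against 243 to 258 CPM, Cycs at 406 CPM against 165 to 216 CPM, and Ndufv1 at 168 CPM against 138 to 142 CPM. KO replicate 4 had Cox6b2 at 14.9 CPM against 2.99 to 5.63 CPM. KO replicate 1 had Slc39a14 at 160.1 CPM against 78.5 to 93.8 CPM. Without KO replicate 5, 23 members were called lower in place of 19.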

How the results depend on the processing

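The number of genes called was 4660 and lay between 3207 and 5507 when a mouse was left out. The 19 lower members became 12 to 23 and the 2 higher members 1 to 2 when a mouse was left out. Without WT replicate 1, 2 or 3 or KO replicate 3 there were 12 lower members, and without KO replicate 2 there were 14. All 4 complex II genes were called in each of these fits. With the smooth muscle score as a covariate 17 genes, 0 lower and 0 higher members were called, and the median log2 fold change of the members was -0.30. Without the filter 1 higher member was called, and with RLE scaling, DESeq2, a mean count of at least 10 and robust dispersion 20, 21, 20 and 20 members were lower, 19 of them shared with the 19 in each case. Without Cox7a2l and Atp5s the counts were 19 and 2.

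Mice with the same replicate number did not deviate together (correlations of -0.17 to 0.18 over 5 pairs), so the numbers do not pair them. With the replicate number as a block, 12 members were lower, all among the 19, and 1 was higher.

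No called member turned in direction in any of the alternatives. Of the 61 members not called, 13 turned from negative to positive with library size alone, none of them beyond -0.12 before, 16 turned with the smooth muscle score and at most 12 with a mouse left out. Single values are given for the genes named by the rule. With the smooth muscle score Cox4i1 had -0.33, Cox4i2 -0.24, Cox8a -0.24, Cox6a2 0.72, Ndufa4l2 0.24 and the called gene Ppargc1b 0.033. With library size alone, which moved the median of all genes from 0.03 to 0.15, Cox6b1 had 0.012, Uqcr10 0.037 and Uqcr11 0.0038. Without the filter Cox8a had -0.0044. With a mouse left out Cox4i1 ranged from -0.063 to 0.12 and Cox8a from -0.052 to 0.084. The causes were not tested. The summed level of each complex moved by less than the spread between mice with plain library sizes. At these depths, Cox8b, Cox6a2 and Cox4i2 rest on few counts per library.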
